A study of Mus musculus with 18 samples.

Results

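The comparison described here asked whether the transcriptional response of cultured mouse bone marrow macrophages to TGF-β1 depends on the genotype label of the cells. It rests on 12 of the 18 RNA-seq libraries of the study, 6 labelled Smad1 fl/fl + LyzM-Cre (MyS1KO), called KO-labelled below, and 6 labelled Smad1 fl/fl, called floxed-labelled. Within each label, 3 libraries came from cells given 10 ng/ml TGF-β1 for 4 h and 3 from untreated cells. The other 6 libraries, 3 of each label, came from cells given 50 ng/ml BMP4 for 4 h. They were included in the fit and so enter the estimates of spread and the p-values, but they are not compared here. All mice carried loxP-flanked Smad1 alleles and were 2 to 3 months old, and KO-labelled mice also carried Cre recombinase driven by Lyz2, the lysozyme gene of macrophages and neutrophils. Non-adherent marrow cells, pre-cultured with WEHI-3 conditioned medium, were grown for 48 h in 120 ng/ml CSF-1 and kept without serum for about 16 h before the stimulus. The measure of interest is the interaction, that is, the log2 fold change of TGF-β1 over untreated in KO-labelled cells minus the same fold change in floxed-labelled cells, so a positive value means a more positive response in KO-labelled cells. Whether the 3 libraries of a group are different animals or cultures is not stated, so the p-values describe the variation among these libraries, some of it perhaps technical.

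TGF-β1 binds a receptor complex that phosphorylates Smad2 and Smad3, which join Smad4 and switch genes on and off in the nucleus. Smad1, with Smad5 and Smad9, is the substrate of BMP receptors, and in several cell types TGF-β1 also leads to phosphorylation of Smad1 and Smad5. Their usual targets are the Id genes, whose products block basic helix-loop-helix transcription factors, and Smad6, an inhibitory Smad. Smad7 and Pmepa1 are feedback inhibitors that Smad3 induces in many cell types.

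Total counts in the 12 libraries ran from 15153296 to 24639163, mitochondrial genes held 1.02% to 1.20% of the counts, and 3 counts, taken as a floor, equalled 0.122 to 0.198 CPM (each library's counts brought to the same total, using TMM factors for every value given; floors cover counting error only). Macrophage markers were abundant in every library, all 15 of them being detected in each group. Lyz2 goes against the genotype labels: it held 13449 to 17290 CPM in the 6 KO-labelled libraries and 8118 to 9756 CPM in the floxed-labelled libraries numbered 2 and 3, but 37.6 CPM with TGF-β1 and 62.1 CPM untreated in those numbered 1. Smad1 itself fell with TGF-β1 in both labels, to 20.4, 23.6 and 19.5 CPM in KO-labelled libraries, against 26.8, 26.0 and 26.0 CPM untreated, and to 26.3, 24.6 and 22.2 CPM in floxed-labelled ones, against 30.02, 30.8 and 31.1 CPM untreated. Since the deleted exon is not named in the labels, a count over the whole gene does not check them. Values without the floxed-labelled libraries numbered 1 are given below for Id2, Id3, Smad6, Tns1 and the gene lists whose interaction is counted. Leaving those out does not remove the conflict, since Lyz2 in floxed-labelled numbers 2 and 3 also lay below every KO-labelled library. The labels were used as given, and the sign of every interaction depends on them.

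The responses of the 2 labels ran close together across genes, and 1 gene, Id2, passed the test of a difference. Of 14684 genes tested, edgeR's quasi-likelihood test at an adjusted p under 0.05 called 1 gene with a more positive response in KO-labelled cells (0.00681% of the genes tested) and 0 genes with a more negative one. At an unadjusted p under 0.05 there were 324 positive and 457 negative genes, 2.21% and 3.11% of the genes tested, and together 5.32%. DESeq2 called 2 genes, Id2 and, with a more negative response in KO-labelled cells, Tns1. Fitted within each label, TGF-β1 raised 2966 genes (20.2%) and lowered 2950 (20.1%) in KO-labelled cells, and raised 2946 (20.1%) and lowered 2859 (19.5%) in floxed-labelled cells.

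Id2 (ENSMUSG00000020644, chromosome 12, 25093799 to 25097140, build mm10), an inhibitor of basic helix-loop-helix factors, rose with TGF-β1 in both labels and more in KO-labelled cells. KO-labelled libraries numbered 1 to 3 held 91.3, 87.1 and 84.2 CPM with TGF-β1 and 18.6, 17.6 and 16.0 CPM untreated. Floxed-labelled libraries held 61.8, 70.6 and 68.3 CPM with TGF-β1 and 22.2, 19.7 and 20.9 CPM untreated. With TGF-β1 every KO-labelled library was above every floxed-labelled one, while untreated every KO-labelled library was below every floxed-labelled one. The response was 5.02-fold in KO-labelled cells (log2 2.33, SE 0.0731) and 3.19-fold in floxed-labelled cells (log2 1.67, SE 0.0689). Their difference was log2 0.66 (SE 0.102, 95% interval 0.45 to 0.87), or 1.58-fold (edgeR adjusted p = 0.0128). Taken by library number, the log2 responses were 2.29, 2.30 and 2.39 in KO-labelled cells and 1.47, 1.83 and 1.70 in floxed-labelled cells, with no overlap. An exact two-sided permutation test of those 6 values gave p = 0.1, the smallest that 3 against 3 can give. Values without overlap always give that p, so the test adds nothing to their separation. Without the floxed-labelled libraries numbered 1 in every treatment the difference was 0.56 and did not pass the test (edgeR adjusted p = 0.247), and with 1 block for library number shared by both labels it was 0.65 (edgeR adjusted p = 0.105). Over the 18 fits that left libraries out, the Id2 difference ran from 0.56 to 0.75, with edgeR adjusted p-values from 0.00445 to 0.247. It stayed positive in each of them and missed the threshold in 10, among them 6 of the 12 that left out a single library.

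The promoters of Id2 and Id3 are shown because Id2 carried the called difference, and Id3, described next, is a member of its family whose difference did not pass the test. The sequences are RefSeq's for build GRCm38.p6, 250 bases before to 50 bases after the annotated start (Id2 at chr12:25096043-25096342 on the minus strand, Id3 at chr4:136143572-136143871 on the plus strand). Capitals mark matches to GGCGCC or to CAGAC and its reverse complement GTCTG, searched on both strands, which do not overlap each other. GGCGCC is a GC-rich element of the kind bound by Smad1 and Smad5 complexes, and CAGAC holds the core of the Smad3 and Smad4 element.
Id2: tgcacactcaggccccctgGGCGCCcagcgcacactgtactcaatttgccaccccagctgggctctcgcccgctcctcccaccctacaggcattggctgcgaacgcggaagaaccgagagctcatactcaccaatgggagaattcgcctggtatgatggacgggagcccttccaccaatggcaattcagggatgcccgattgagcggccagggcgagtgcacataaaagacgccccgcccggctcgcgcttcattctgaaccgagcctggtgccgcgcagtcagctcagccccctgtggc
Id3: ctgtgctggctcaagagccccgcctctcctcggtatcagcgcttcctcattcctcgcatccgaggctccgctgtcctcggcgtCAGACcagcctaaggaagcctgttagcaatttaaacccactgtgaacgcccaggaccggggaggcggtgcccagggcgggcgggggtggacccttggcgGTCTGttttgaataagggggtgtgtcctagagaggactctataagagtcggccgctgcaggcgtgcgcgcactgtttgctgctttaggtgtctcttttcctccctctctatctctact
The Id2 window holds 1 match to GGCGCC and 0 to CAGAC, and the Id3 window 0 and 2. Of 32851 promoter windows of the same 300-base length, 11.9% hold GGCGCC and 49.6% hold CAGAC. A match describes the letters of a window and is no binding site, and both windows lie inside the gene spans of the deposited table.

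Id3 (ENSMUSG00000007872, chromosome 4, 136143497 to 136145755) had a larger fitted difference than Id2, but its spread was wide. KO-labelled libraries held 50.1, 52.6 and 46.7 CPM with TGF-β1 and 1.63, 1.10 and 0.943 CPM untreated. Floxed-labelled libraries held 9.91, 25.3 and 24.2 CPM with TGF-β1 and 0.814, 1.46 and 1.06 CPM untreated. Treated KO-labelled libraries thus stood above all treated floxed-labelled ones, and the untreated libraries of the 2 labels overlapped. The response was 40.4-fold in KO-labelled and 17.5-fold in floxed-labelled cells. The difference of log2 1.21 (SE 0.419, 95% interval 0.35 to 2.07) did not pass the test (edgeR adjusted p = 0.864, unadjusted p = 0.00772), and it was 1.06 without the floxed-labelled libraries numbered 1. With no filter on low counts it was 1.24 and passed (edgeR adjusted p = 0.0222). By library number the log2 responses were 4.86, 5.46 and 5.49 in KO-labelled cells and 3.45, 4.02 and 4.38 in floxed-labelled cells.

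Id1 was scarce throughout. It held 2.34, 1.58 and 1.87 CPM in KO-labelled and 0.557, 1.41 and 1.34 CPM in floxed-labelled libraries with TGF-β1. Untreated it held 0.181, 0.183 and 0.314 CPM in KO-labelled and 0.0857, 0.189 and 0.213 CPM in floxed-labelled libraries, at or near the floor of 3 counts, so no fold is given. Smad6, the inhibitory Smad that BMP signalling induces, held 36.9, 34.6 and 39.3 CPM in KO-labelled and 18.04, 26.5 and 21.99 CPM in floxed-labelled libraries with TGF-β1. Its untreated levels were 1.27, 0.732 and 1.63 CPM in KO-labelled and 0.343, 1.18 and 1.28 CPM in floxed-labelled libraries. The treated levels did not overlap between labels, the untreated levels did, and the difference between responses was log2 0.32 (95% interval −0.44 to 1.08, edgeR adjusted p = 0.956). Here and below, treated levels that do not overlap are a difference in level between labels, not by themselves a different response. The share of all genes with such levels was not counted. In Id1, Id2, Id3 and Smad6 the floxed-labelled library numbered 1, in which Lyz2 was near 0, was the lowest of the 6 TGF-β1 libraries. Leaving out every floxed-labelled library numbered 1, not that library alone, lowered the Id3 value to 1.06 and the Id2 value to 0.56. It raised the Smad6 value to 0.64, against 0.32 with all libraries. None of these 3 values passed the test. The Id2 value was 0.60 without that TGF-β1 library alone and 0.58 without the untreated floxed-labelled library numbered 1 alone.

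**Figure D1:**
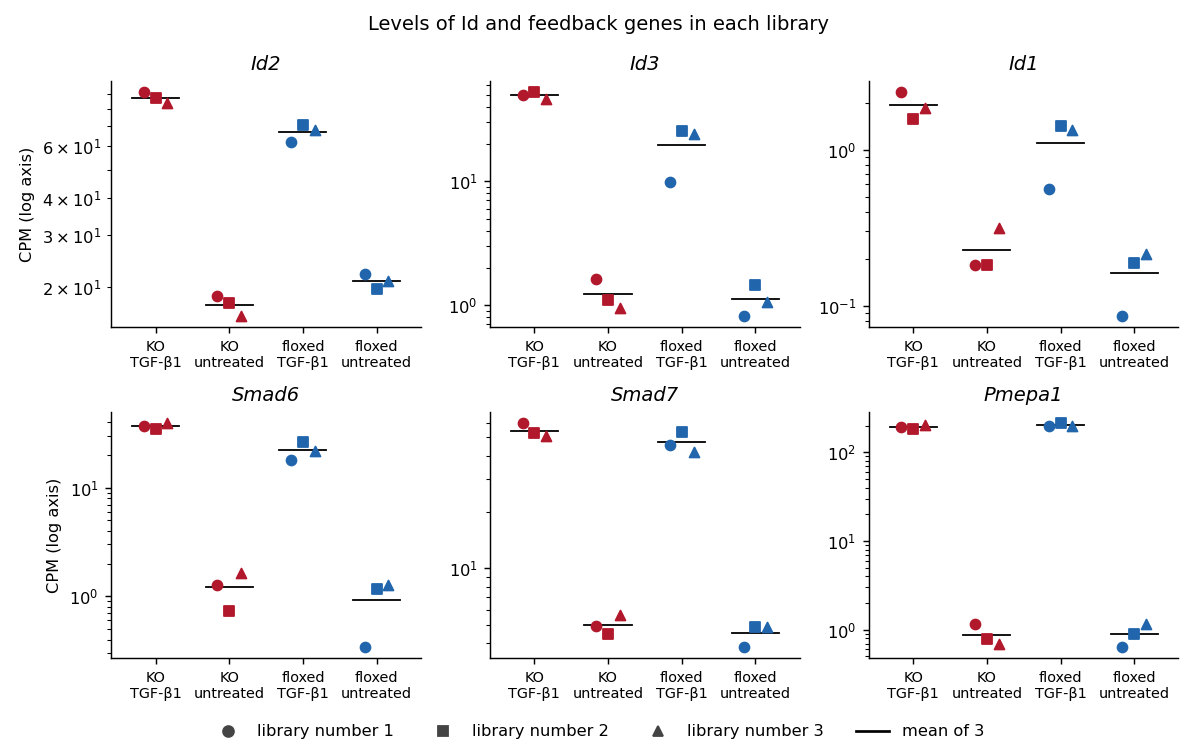
Levels of 6 Id and feedback genes in each of the 12 libraries, as CPM on a log axis, by group; symbols give the library number and bars the mean of 3 libraries. In Id2, Id3, Id1 and Smad6 the KO-labelled TGF-β1 libraries lie above the floxed-labelled ones. In Pmepa1 they lie at the same level (184 to 204 CPM in KO-labelled against 196 to 214 CPM in floxed-labelled libraries). The share of all genes whose treated levels do not overlap between labels was not counted.

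The wider list of BMP and Smad1/5 target genes held 11 tested genes of 24. In KO-labelled cells 8 rose and 2 fell, and in floxed-labelled cells 9 rose and 2 fell. Over all genes tested, 20.2% rose and 20.1% fell in KO-labelled cells, and 20.1% rose and 19.5% fell in floxed-labelled cells. The filter on low counts used all 6 groups, so members scarce untreated could enter through a group where they are high. The interaction was positive in 7 of the 11, with a median of 0.32, against 7098 of 14684 and a median of −0.01 over all genes tested. Besides Id2, Id3, Id1 and Smad6, the positive members were Hes1 (1.01), Hey1 (0.69) and Gata2 (0.06), 3 transcription factor genes. Their edgeR adjusted p-values were 0.975, 0.975 and 0.998, and their levels are not reported here. The interval of the difference lay within 2-fold for 4 of the 11 genes. Id1, scarce and near the floor untreated, had differences from −0.06 to 0.93 over the 18 fits that left libraries out. Negative members were the secreted ligand Bmp2 (−0.25), the homeobox gene Hhex (−0.21), the osteoblast factor Runx2 (−0.13) and the pseudoreceptor Bambi (−0.11). The positive count was 5 of 11 without the KO-labelled libraries numbered 3 (median −0.07) and 6 without those numbered 2 (median 0.07). It was 6 without the floxed-labelled libraries numbered 1 (median 0.34) and 8 without those numbered 2 (median 0.24). Without the KO-labelled libraries numbered 1 or the floxed-labelled ones numbered 3 it stayed at 7.

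Targets of TGF-β and Smad3 showed no call. Of 28 tested genes of a list of 30, 19 rose and 8 fell in each label. Over all genes tested, 20.2% rose and 20.1% fell in KO-labelled cells, and 20.1% rose and 19.5% fell in floxed-labelled cells. The interaction was positive in 7098 of all 14684 genes, with a median of −0.01, and in 9 of the 28, with a median of −0.05. It was positive in 8 without the floxed-labelled libraries numbered 1 and in 14, with a median of 0.00, without those numbered 2. Pmepa1 held 194, 184 and 204 CPM in KO-labelled and 196, 214 and 198 CPM in floxed-labelled libraries with TGF-β1, and 1.15, 0.793 and 0.691 CPM in KO-labelled and 0.642, 0.897 and 1.17 CPM in floxed-labelled libraries untreated. It rose 219-fold in KO-labelled and 227-fold in floxed-labelled cells, and the difference was log2 −0.06 (95% interval −0.62 to 0.51). Smad7 rose 10.8-fold in KO-labelled and 10.4-fold in floxed-labelled cells, with a difference of log2 0.06 whose 95% interval ran from −0.26 to 0.37. The intervals of Pmepa1 and Smad7 thus lie within 2-fold either way. In this list Spsb1, an adaptor that promotes loss of a TGF-β receptor, had the lowest p. It held 73.2, 73.8 and 80.3 CPM in KO-labelled and 84.0, 88.0 and 86.3 CPM in floxed-labelled libraries with TGF-β1, against 2.30, 2.62 and 2.76 CPM in KO-labelled and 2.27, 1.79 and 1.91 CPM in floxed-labelled libraries untreated. Its rise was 29.5-fold in KO-labelled and 42.8-fold in floxed-labelled cells, and the difference of log2 −0.54 did not pass the test (edgeR adjusted p = 0.894).

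Receptors, ligands and Smads gave differences that were small where the genes were abundant. Among 20 tested ligand and receptor genes the interaction was positive in 1, Gdf3 (0.10), and the median was −0.11. Over all genes tested the interaction was positive in 7098 of 14684, with a median of −0.01. The list's count was 2, 3 and 5 without the KO-labelled libraries numbered 1, 2 and 3, and 4, 4 and 2 without the floxed-labelled ones. Its median was −0.04 without the floxed-labelled libraries numbered 1. The receptor gene Tgfbr1 rose 3.35-fold in KO-labelled and 3.68-fold in floxed-labelled cells (difference −0.13, edgeR adjusted p = 0.926). The gene of the ligand itself, Tgfb1, fell to 0.772 of the untreated level in KO-labelled and 0.847 in floxed-labelled cells (difference −0.13, edgeR adjusted p = 0.926). Among 16 Smads and co-factors the interaction was positive in 9 and its median was 0.01 (8 and 0.00 without the floxed-labelled libraries numbered 1). Smad1 had a difference of log2 0.02 (95% interval −0.20 to 0.24) and Smad5 of −0.04 (95% interval −0.25 to 0.16).

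**Figure D2:**
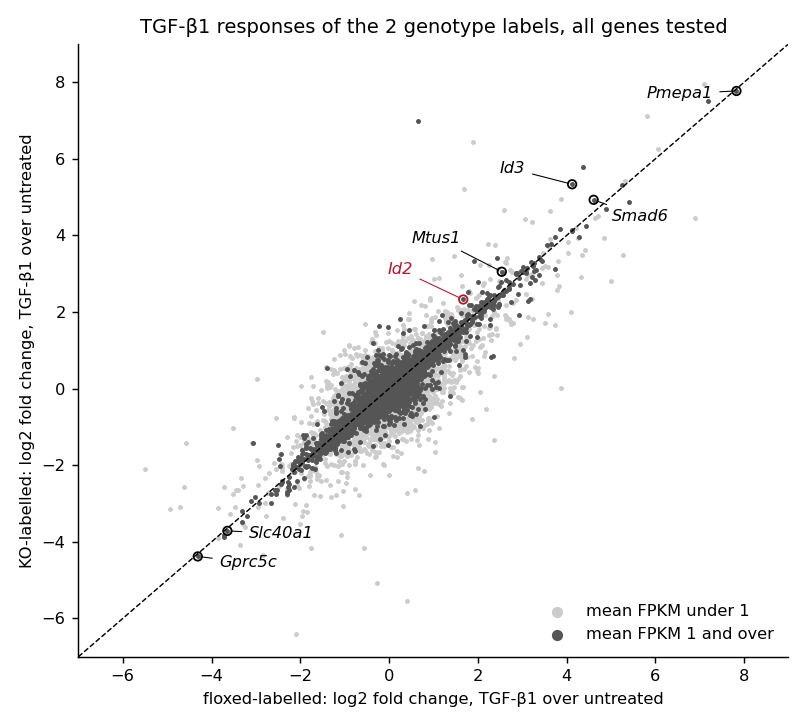
Fitted log2 fold change of TGF-β1 over untreated in KO-labelled cells (vertical axis) against that in floxed-labelled cells (horizontal axis) for 14684 genes, with the line of equal responses dashed; light points are genes with a mean FPKM under 1. Genes at 1 FPKM and over lie along the line, and Id2, the called gene, and Id3 lie above it.

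Across genes the responses had a Pearson r of 0.839 (Spearman rho 0.746) and a principal axis slope of 1.03, KO-labelled over floxed-labelled, and 11820 genes (80.5%) had the same sign. These are values across genes, which are not independent replicates, and the responses share no library. The agreement depended on level. Binned by mean FPKM, the length-scaled level, over the 12 libraries, r was 0.747 for 3694 genes under 1 FPKM, 0.909 for 6491 genes from 1 to 10, 0.979 for 4069 genes from 10 to 100 and 0.984 for 430 genes at 100 and over. The 95% interval of the difference had a median half-width of log2 1.20 in the lowest bin and 0.29, 0.15 and 0.13 in the next bins. That interval lay within 2-fold either way for 10984 genes (74.8%), which were 20.5% of the genes under 1 FPKM, 88.6% of those from 1 to 10, 99.4% of those from 10 to 100 and 99.8% of those at 100 and over. For most genes under 1 FPKM the interval therefore left a 2-fold difference possible, while for most genes at 1 FPKM and over it did not.

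**Figure D3:**
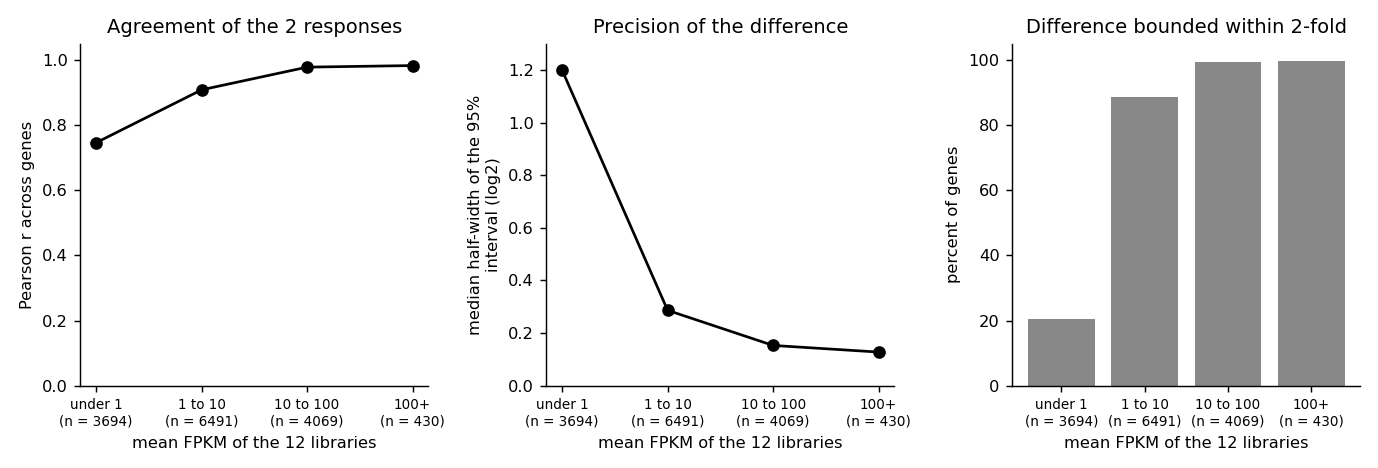
Pearson r of the 2 responses across genes, median half-width of the 95% interval of their difference (log2), and percent of genes whose interval lies within 2-fold either way, by mean FPKM over the 12 libraries. The correlation rises from 0.747 to 0.984 and the half-width falls from 1.20 to 0.13 with level.

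How far 2 libraries of the same label differ sets the scale for those values. Taking the response of each library number by itself (log2 CPM with a prior count of 2), the 9 pairs of a KO-labelled with a floxed-labelled number had r from 0.652 to 0.700 across all genes. The 3 pairs within KO-labelled cells had r from 0.678 to 0.689, and the 3 within floxed-labelled cells from 0.690 to 0.716. Over genes at 10 FPKM and more, the ranges were 0.934 to 0.959 between labels, 0.938 to 0.951 within KO-labelled and 0.941 to 0.955 within floxed-labelled cells. The ranges between and within labels overlapped in both sets of genes. The 3 responses of one label lay clear of the 3 of the other in 1583 genes, 10.8% of the genes tested. With 3 values against 3, such separation also arises without a difference between labels, so nothing is read from that count.

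Calls made in each label by itself overlapped in most genes. Of the genes called higher, 2365 were shared, 79.7% of those in KO-labelled and 80.3% of those in floxed-labelled cells. Of those called lower, 2356 were shared, 79.9% of those in KO-labelled and 82.4% of those in floxed-labelled cells. Most of the remaining genes moved the same way in the other label without passing its test: 554 of 601 genes called higher in KO-labelled cells alone, and 531 of 581 in floxed-labelled cells alone, had that sign. Among the same genes, 97 of the 601 in KO-labelled cells and 88 of the 581 in floxed-labelled cells had an unadjusted interaction p under 0.05, as had 131 of the 594 genes called lower in KO-labelled cells alone and 74 of the 503 in floxed-labelled cells alone. Over all genes tested that share was 5.32%, and since the calls and the interaction use the same libraries, nothing is read from these counts. Of genes called lower in KO-labelled cells alone, 532 of 594 had a negative response in the other label, as did 458 of 503 genes called lower in floxed-labelled cells alone. Calls in opposite directions were made for 2 genes, both named after their values were seen. A530040E14Rik fell by log2 0.55 in KO-labelled cells (edgeR adjusted p = 0.00382) and rose by 0.41 in floxed-labelled cells (edgeR adjusted p = 0.0134). It held 8.82, 5.66 and 6.88 CPM with TGF-β1 and 9.31, 9.39 and 12.1 CPM untreated in KO-labelled libraries, and 11.5, 13.1 and 12.0 CPM with TGF-β1 and 8.52, 9.44 and 9.41 CPM untreated in floxed-labelled ones. Its interaction of −0.96 did not pass the test over all genes (edgeR adjusted p = 0.19). The other, Gm42908, averaged 0.34 CPM and its interaction did not pass either (edgeR adjusted p = 0.598).

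The median size of the response was close in the 2 labels. Genes with a mean response of at least 2-fold that passed the test numbered 1321, of which 665 rose and 656 fell (at any size, 25.8% of the genes tested were called higher and 25.1% lower in the mean response). They were chosen by the mean of the 2 responses, which the interaction does not use but which favours equal signs, and 1318 of them had the same sign in both labels. Those that rose had a median log2 response of 1.52 in KO-labelled and 1.57 in floxed-labelled cells, with a median interaction of −0.02. Those that fell had medians of −1.42 in KO-labelled and −1.32 in floxed-labelled cells and a median interaction of −0.05. Within the genes that rose r was 0.781, and within those that fell 0.496. At 10 to 100 FPKM these values were 0.988 for 143 genes and 0.957 for 102, and under 1 FPKM 0.677 for 282 genes and 0.306 for 312. For 242 of the 245 genes at 10 to 100 FPKM the interval of the difference lay within 2-fold. Over all 1321 it lay within 2-fold for 701 (53.1%). Slc40a1, the iron exporter ferroportin, fell to 29.9, 54.1 and 35.3 CPM in KO-labelled libraries, against 455, 605 and 481 CPM untreated, and to 24.0, 28.1 and 39.9 CPM in floxed-labelled libraries, against 362, 343 and 438 CPM untreated. Its difference was log2 −0.07 (95% interval −0.27 to 0.13).

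Apart from Id2, the genes with the largest differences by rule did not pass the test over all genes and are given as values. The rule took genes with an unadjusted p under 0.01, a mean of at least 5 CPM and responses by number that did not overlap. It left out predicted genes (symbols of the Gm, Rik and AC kinds, among them A530040E14Rik). These terms were met by 38 positive and 55 negative genes, of which the 8 largest of each sign were named. After Id3 and Id2, the positive ones were Nanos1 (0.64), which encodes an RNA-binding translational repressor, Mtus1 (0.51), a microtubule-associated protein, Ccdc181 (0.49), Ndufb1-ps (0.48), Timm8b (0.44), a mitochondrial import chaperone, and Inafm2 (0.41). Mtus1 held 82.9, 73.2 and 85.6 CPM with TGF-β1 and 9.55, 10.4 and 9.11 CPM untreated in KO-labelled libraries. In floxed-labelled libraries it held 59.6, 67.8 and 66.9 CPM with TGF-β1 and 11.1, 10.5 and 11.6 CPM untreated. Like Id2, Mtus1 was higher in KO-labelled than in floxed-labelled libraries with TGF-β1, and lower untreated. Its response was 8.30-fold in KO-labelled and 5.82-fold in floxed-labelled cells (edgeR adjusted p of the difference = 0.304). Ndufb1-ps is annotated as a bidirectional promoter lncRNA and named as a pseudogene, and whether its counts hold reads of related genes was not tested. With no filter on low counts Id3, Mtus1, Zfp658, Tctn1 and Adgrl2 passed the test, with edgeR adjusted p-values from 0.00141 to 0.0498, as did A530040E14Rik.

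The 8 negative genes were the zinc finger gene Zfp658 (−0.87), mt-Nd3 of the mitochondrial genome (−0.81), the semaphorin Sema4b (−0.80), the transcriptional repressor Bach2 (−0.69), Tctn1 of the ciliary transition zone (−0.62), the tyrosine kinase Src (−0.56), Fam234b (−0.50) and the adhesion receptor Adgrl2 (−0.50). Sema4b held 3.14, 2.72 and 3.31 CPM with TGF-β1 and 9.91, 7.99 and 9.55 CPM untreated in KO-labelled libraries. In floxed-labelled libraries it held 4.62, 4.82 and 4.61 CPM with TGF-β1 and 7.54, 7.93 and 8.77 CPM untreated. Sema4b fell to 0.334 of the untreated level in KO-labelled cells and to 0.580 in floxed-labelled cells (edgeR adjusted p of the difference = 0.598). Bach2 rose 3.82-fold in KO-labelled and 6.15-fold in floxed-labelled cells (edgeR adjusted p of the difference = 0.827). Tctn1 was 1.01-fold of the untreated level in KO-labelled cells and rose 1.55-fold in floxed-labelled cells (edgeR adjusted p of the difference = 0.155).

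**Figure D4:**
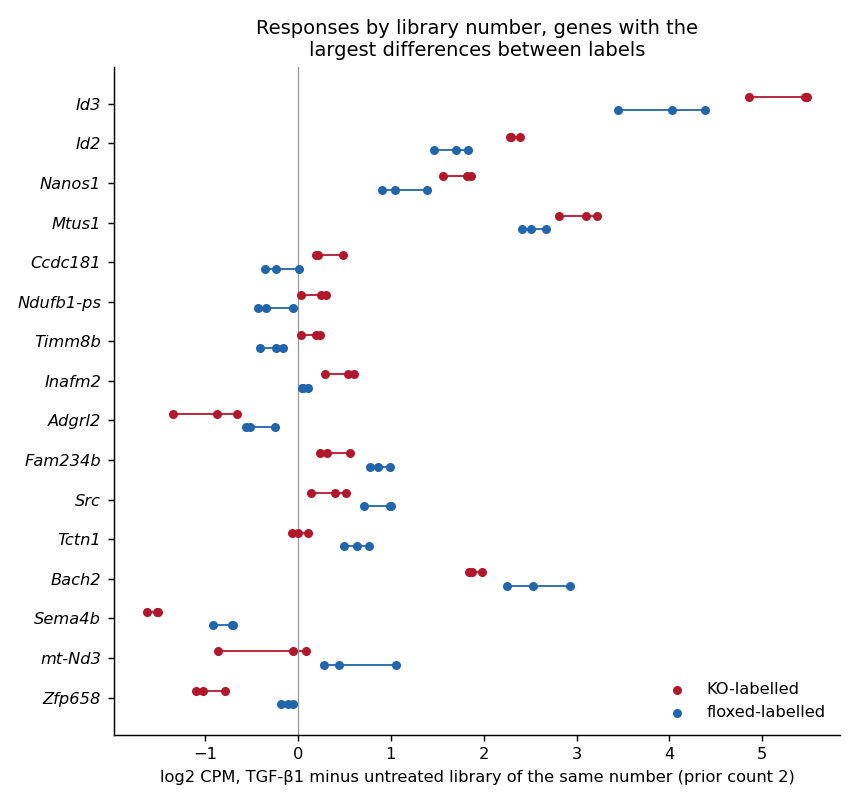
Responses by library number, as log2 CPM of a TGF-β1 library minus the untreated library of the same number and label, for the 8 largest positive and the 8 largest negative differences by rule, predicted genes left out. Genes with no overlap between labels were required by the rule; Id2 has 2.29 to 2.39 in KO-labelled and 1.47 to 1.83 in floxed-labelled cells.

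Tns1 (ENSMUSG00000055322), the tensin gene of focal adhesions, had the second lowest p of all genes and is named after its value was seen. It held 29.8, 26.7 and 26.8 CPM with TGF-β1 and 90.4, 92.5 and 84.6 CPM untreated in KO-labelled libraries, against 39.1, 38.6 and 41.8 CPM with TGF-β1 and 92.7, 82.2 and 101 CPM untreated in floxed-labelled ones. Its untreated levels overlapped between labels, its treated levels did not. It fell by log2 1.69 in KO-labelled and by 1.20 in floxed-labelled cells, a difference of −0.49 (95% interval −0.67 to −0.30, edgeR adjusted p = 0.0825). DESeq2 called it, as did edgeR when the BMP4 libraries were left out of the fit or no filter on low counts was used, and the difference was −0.50 without the floxed-labelled libraries numbered 1 (edgeR adjusted p = 0.247).

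By function, 26 lists of pathway and macrophage genes held no interaction call other than Id2. Of 14 tested genes for angiogenic growth factors and their receptors, 6 rose and 3 fell in KO-labelled cells, and 7 rose and 3 fell in floxed-labelled cells. Over all genes tested, 20.2% rose and 20.1% fell in KO-labelled cells, and 20.1% rose and 19.5% fell in floxed-labelled cells. Pdgfb, which encodes a growth factor for pericytes, held 309, 271 and 291 CPM with TGF-β1 and 67.1, 60.7 and 64.5 CPM untreated in KO-labelled libraries. In floxed-labelled libraries it held 278, 272 and 247 CPM with TGF-β1 and 48.1, 44.5 and 51.6 CPM untreated. The treated levels overlapped and the untreated ones did not, with responses of 4.53-fold in KO-labelled and 5.53-fold in floxed-labelled cells (difference −0.29, edgeR adjusted p = 0.598). Plau, the urokinase plasminogen activator of the protease list, rose 7.505-fold in KO-labelled and 9.33-fold in floxed-labelled cells (difference −0.31, edgeR adjusted p = 0.864). Its treated levels were 185 to 191 CPM in KO-labelled and 243 to 282 CPM in floxed-labelled libraries, without overlap. Vegfa and Pdgfa, 2 further growth factor genes, had differences of −0.03 and 0.01.

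In several lists small differences lay mostly on one side, which is described here by counts alone. Over all genes tested the interaction was positive in 7098 of 14684. Cytosolic ribosomal protein genes had a positive interaction in 39 of 43 members, with a median of 0.05. Of these genes 16 rose and 1 fell in KO-labelled cells, against 1 and 0 in floxed-labelled cells, a contrast that was not tested. Over all genes 20.2% rose and 20.1% fell in KO-labelled cells, and 20.1% and 19.5% in floxed-labelled cells. Rps23 held 431, 415 and 418 CPM with TGF-β1 and 353, 393 and 355 CPM untreated in KO-labelled libraries, and 423, 440 and 439 CPM with TGF-β1 and 429, 439 and 404 CPM untreated in floxed-labelled ones. The low values of Rps23 were thus the untreated KO-labelled libraries. The ribosomal count was 39 under both other scalings, 34 without the floxed-labelled libraries numbered 1, and 22 of 43 without the KO-labelled libraries numbered 1.

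Interferon-stimulated genes fell with TGF-β1, 24 of 38 in KO-labelled and 27 in floxed-labelled cells, with 1 that rose in each. Over all genes tested 20.1% fell in KO-labelled and 19.5% in floxed-labelled cells. The interaction of the 38 genes was positive in 33, with a median of 0.11, against 7098 of 14684 and −0.01 over all genes tested. Irgm2, an immunity-related GTPase, fell to 0.601 of the untreated level in KO-labelled and to 0.517 in floxed-labelled cells (difference 0.22, edgeR adjusted p = 0.898). The count of 33 was 35 and 34 under the other scalings and 28 without the floxed-labelled libraries numbered 1 (median 0.05). It was 23 of 38 without the KO-labelled libraries numbered 1 and 21 of 38 without the floxed-labelled libraries numbered 2, with medians of 0.03 and 0.01, while the median was 0.24 without the KO-labelled libraries numbered 2 and 0.26 without the floxed-labelled ones numbered 3.

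Cholesterol synthesis genes had a positive interaction in 3 of 28, with a median of −0.10, against 7098 of 14684 and −0.01 over all genes tested. In KO-labelled cells 0 rose and 10 fell, and in floxed-labelled cells 3 rose and 10 fell. Over all genes tested, 20.2% rose and 20.1% fell in KO-labelled cells, and 20.1% rose and 19.5% fell in floxed-labelled cells. Srebf1, a master regulator of lipid synthesis, had a difference of −0.20 (edgeR adjusted p = 0.811). The positive count was 4 of 28 under both other scalings and without the floxed-labelled libraries numbered 1, and 10 without those numbered 2. It was 6 without the KO-labelled libraries numbered 2 and 5 without those numbered 3.

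Extracellular matrix genes had a positive interaction in 5 of 23 and a median of −0.15, against 7098 of 14684 and −0.01 over all genes tested. The count was 8 of 23 with a median of −0.04 under DESeq2, 7 of 24 with −0.16 without the floxed-labelled libraries numbered 1, 10 of 22 with −0.01 without those numbered 2, and 3 of 26 with −0.23 without those numbered 3. Without the KO-labelled libraries numbered 3 it was 7 of 26 with a median of −0.06. Fn1, fibronectin, rose 2.03-fold in floxed-labelled cells, and its log2 change of 0.43 in KO-labelled cells did not pass (difference −0.59, edgeR adjusted p = 0.926). The collagen gene Col1a2 had a difference of −1.81, which did not pass (edgeR adjusted p = 0.927). It held 0.401, 0.381 and 0 CPM with TGF-β1 and 0.423, 0.366 and 0.566 CPM untreated in KO-labelled libraries, and 0.223, 3.07 and 0.419 CPM with TGF-β1 and 0.771, 0.708 and 0.425 CPM untreated in floxed-labelled ones. The value thus rests on the floxed-labelled TGF-β1 library numbered 2, which stood above the rest. Fibroblast and stromal markers, Col1a2 included, summed over 10 genes to 0.852 to 2.61 CPM with TGF-β1 and 2.35 to 2.95 CPM untreated in KO-labelled libraries, and to 2.00 to 13.1 CPM with TGF-β1 and 4.20 to 4.48 CPM untreated in floxed-labelled ones. Pdgfra and Lum were at 0 in the 3 KO-labelled TGF-β1 libraries, and Lum also in the 3 untreated KO-labelled ones. The part of fibroblast and stromal cells in these differences was not tested. In bulk RNA, fewer cells of a type and less RNA per cell cannot be told apart.

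Macrophage receptor genes added single differences without a call. Tlr9, a sensor of DNA, fell to 0.506 of the untreated level in KO-labelled and 0.635 in floxed-labelled cells (difference −0.33, edgeR adjusted p = 0.693). Tlr6, a partner of Tlr2, fell to 0.706 in KO-labelled and 0.567 in floxed-labelled cells (difference 0.32, edgeR adjusted p = 0.788). The scavenger receptor Marco was 1.01-fold of the untreated level in KO-labelled cells and fell to 0.840 in floxed-labelled cells (difference 0.27, edgeR adjusted p = 0.788). Its levels varied between numbers more than with treatment, 73.6 to 197 CPM with TGF-β1 and 78.6 to 180 CPM untreated in KO-labelled libraries, and 72.2 to 143 CPM with TGF-β1 and 82.1 to 182 CPM untreated in floxed-labelled ones. Lpl, lipoprotein lipase, fell to 0.368 in KO-labelled and 0.419 in floxed-labelled cells (difference −0.19, edgeR adjusted p = 0.788). Monocyte markers summed to 395 to 514 CPM with TGF-β1 and 422 to 501 CPM untreated in KO-labelled libraries. In floxed-labelled ones they summed to 542 to 794 CPM with TGF-β1 and 581 to 824 CPM untreated. With TGF-β1, dendritic cell markers (9.90 to 11.3 against 14.4 to 15.2 CPM) and osteoclast markers (124 to 139 against 141 to 148 CPM) also summed lower in KO-labelled libraries. So did mast cell, basophil, erythroid and platelet markers (186 to 214 against 251 to 262 CPM). Neutrophil markers did so untreated (372 to 404 against 438 to 465 CPM). Macrophage markers, Lyz2 among them, summed higher with TGF-β1 (35339 to 36586 against 22736 to 31042 CPM). The part of these cell types was not tested.

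**Figure D5:**
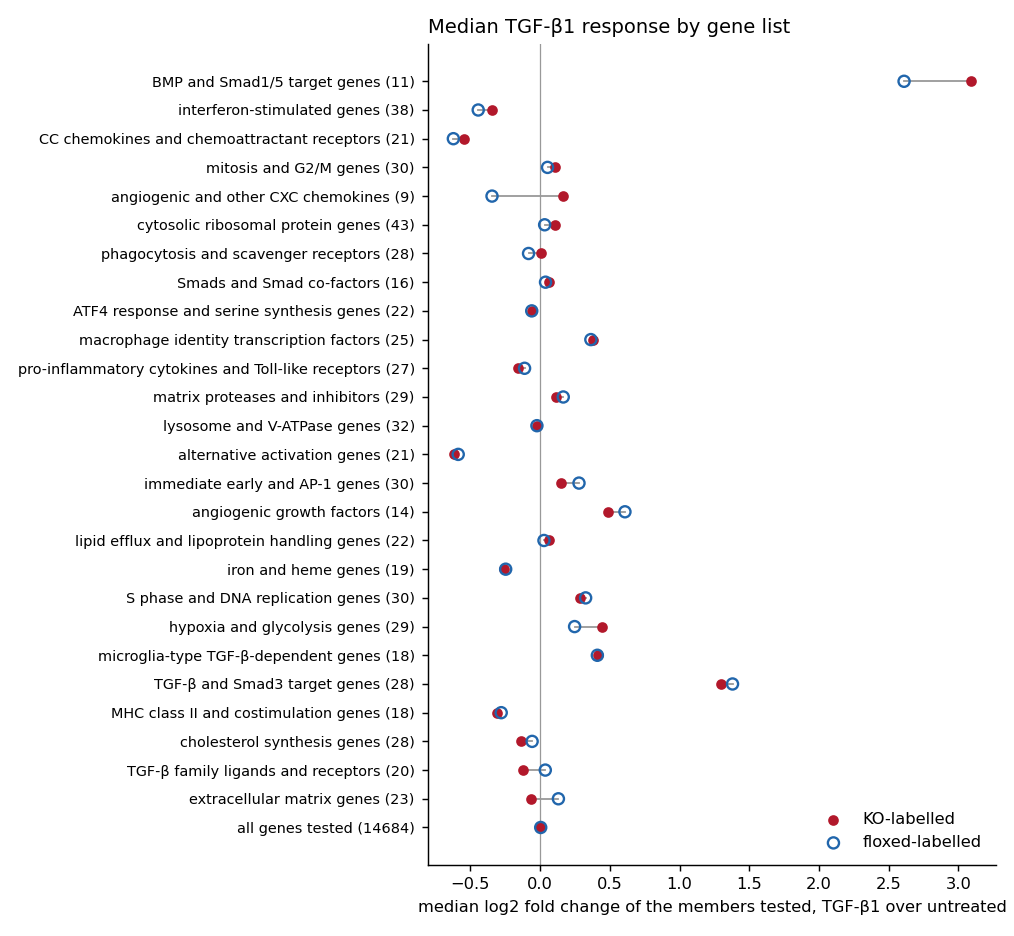
Median log2 response of the tested members of each gene list (number in brackets) in KO-labelled (filled) and floxed-labelled (open) cells, ordered by the median interaction, with all genes tested at the bottom. The list of BMP and Smad1/5 targets has the highest medians, 3.09 in KO-labelled and 2.61 in floxed-labelled cells. Of its 24 genes 11 were tested, and members scarce untreated could pass the filter on low counts through a group where they are high.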

How the data were processed

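Polyadenylated RNA was sequenced as paired reads. Per the submitters' processing notes, TopHat2 2.0.9, HTSeq 0.6.1, Cufflinks 2.1.1 and genome build mm10 (GRCm38.p6) were used, and whether counting used strand is not given in the sources used here, so overlapping and antisense genes are uncertain. Reads per gene are given as raw counts in the deposited table, and these were fitted unchanged. The FPKM columns are the authors' length-scaled values, per the file headers, and served only to bin genes by level. A further 78 columns of per-sample values were not used.

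Counts of all 18 libraries were fitted in R 4.3.3 with edgeR 4.0.16 (TMM factors 0.978 to 1.02, filterByExpr over the 6 groups, 14684 of 54532 genes, quasi-likelihood F test, two-sided, Benjamini-Hochberg adjustment over all genes tested, threshold 0.05). The model held 1 mean per group and the library number as a block within each genotype label (residual degrees of freedom 8, prior 17.7, with a biological coefficient of variation of 4.91%). Numbers were taken from the labels. They pair samples within a label: deviations from group means correlated by 0.11 to 0.326 in the 18 pairs of the same label and number. In the 36 pairs of the same label and different numbers the range was −0.256 to 0.0619. Across labels it was −0.109 to 0.0687 for the same number and −0.162 to 0.127 for different numbers. SE is the absolute log2 difference over the square root of F. Counts of 2 libraries of a group differed beyond counting noise, with a chi-square of 3.45 to 25.7 per degree of freedom, so each was counted as 1 sample; separate preparations of 1 culture would differ so too.

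Named genes were those called, the 8 largest differences of each sign (stated in the text), the 2 lowest p-values of each list, a set of Smad, Id and feedback genes, and the largest mean responses; values of some of these genes are not reported here. Members and lists were chosen with earlier results of these data known. Alternatives were median-of-ratios (RLE) and total count scaling, no filter, a mean of at least 1 CPM, DESeq2 1.42.0, a fit of the 12 libraries, no replicate block, 1 block shared by both labels, bins by CPM, libraries left out, and, added after seeing the data, a permutation test of Id2.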

Additional observations from a re-analysis of the deposited data

Results flagged for a closer look

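The response of Id2 to TGF-β1 differed between the genotype labels by the test of the difference itself. The sign of that difference depends on the labels, which the Lyz2 levels go against. The log2 fold change was 2.33 in KO-labelled and 1.67 in floxed-labelled cells, a difference of 0.66 (SE 0.102, edgeR adjusted p = 0.0128), with a more positive response in each of 3 KO-labelled library numbers than in any of 3 floxed-labelled ones. The difference stayed positive but did not pass the test with 1 block shared by both labels (edgeR adjusted p = 0.105), without the floxed-labelled libraries numbered 1 (edgeR adjusted p = 0.247), and in 10 of the 18 fits that left libraries out, which include that one.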

How the results depend on the processing

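Without a low-count filter 14 positive and 8 negative differences were called among 29506 genes (Id3, Mtus1, Tctn1, Zfp658, Adgrl2, A530040E14Rik and Tns1 among them), r was 0.244, the slope 1.26, and 59.3% of genes had the same sign. With a mean of at least 1 CPM r was 0.932 and the share 83.6%. In the fit of 12 libraries r was 0.856, and there, as under DESeq2, 1 negative difference was called (Tns1). With 1 replicate block shared by both labels 0 were called (Id2 edgeR adjusted p = 0.105, 532 genes at an unadjusted p under 0.05). With no replicate block Id2 was called alone (0.65, edgeR adjusted p = 0.0433), with 493 genes at an unadjusted p under 0.05 against 781. The cause was not tested. Over 18 fits without single libraries or numbers, 0 to 2 positive and 0 to 2 negative differences were called. Genes called higher numbered 2442 to 3092 in KO-labelled and 2350 to 3048 in floxed-labelled cells, and genes called lower 2358 to 2920 in KO-labelled and 2241 to 2947 in floxed-labelled cells. The value of r ran from 0.768 to 0.79, the slope from 0.921 to 1.12, the share with the same sign from 78.1% to 79.5%. With all libraries r was 0.839 and that share 80.5%. The filter was rerun in each of these fits and kept 14960 to 15144 genes, against 14684 with all libraries. Their r and adjusted p-values are thus not over the same genes, and the cause of the lower r was not tested. Responsive genes that rose numbered 663 to 704 (median difference −0.0674 to 0.0105), those that fell 631 to 700 (−0.0797 to 0.0518), and 48.8% to 51% of them were bounded within 2-fold. The Id2 call was lost (edgeR adjusted p in brackets) without a single TGF-β1 library, KO-labelled 1 (0.0888) or 2 (0.0864) or floxed-labelled 1 (0.0776), and without a single untreated one, KO-labelled 3 (0.118) or floxed-labelled 1 (0.24) or 3 (0.0609). It was also lost without every library of KO-labelled number 2 (0.0662) or 3 (0.114), or of floxed-labelled number 1 (0.247) or 3 (0.1). Of 61 genes followed, 9 changed sign in some of these fits, none of them called: Gprc5c (−0.19 to 0.03), Id1 (−0.06 to 0.93), Lyz2 (−0.01 to 0.24), Pmepa1 (−0.27 to 0.20), Rnd3 (−0.25 to 0.06), Slc40a1 (−0.18 to 0.05), Smad1 (−0.06 to 0.10), Smad5 (−0.09 to 0.04) and Smad7 (−0.07 to 0.21). Precision was lowest for scarce genes: under 1 FPKM the median 95% half-width was log2 1.20.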
